A study of Homo sapiens with 18 samples.

Results

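The 10 genes described here are TFAP2A, TFAP2B, TFAP2C, DLX3, DLX5, TP63, ELF3, VTCN1, GABRP and CGA. They were chosen by name, as AP-2 factors and as genes used to mark amnion, trophoblast or surface ectoderm, with earlier results of these data known. They are 10 of the 57133 genes counted by RNA-seq in PGP1 cells. PGP1 is an established line of human induced pluripotent stem cells (iPSCs), and all cells were grown in mTeSR1, a medium for pluripotent cells, on a Matrigel coating. The libraries comprised 2 from unedited cells (WT), 2 from PCGF6-KO clone 1 and 2 from PCGF6-KO clone 2. Each knockout line was 1 clone, made from PGP1 with Cas9 and a pair of guide RNAs directed at the first exon of PCGF6. No source says that the libraries of a group came from separate cultures. The p-values below thus rest only on the spread between libraries, which may be technical. Where both clones were taken as 1 group, that spread, and each SD over 4 libraries, also holds the difference between the 2 clones.

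PCGF6 is the subunit that defines the Polycomb complex PRC1.6, a repressor of transcription that also holds the DNA-binding proteins E2F6 and MAX. AP-2 factors bind a GC-rich palindrome as dimers and act in trophoblast, amnion, surface ectoderm and neural crest, where TFAP2A and TFAP2C are often expressed together. Amnion and surface ectoderm both form a simple epithelium outside the neural plate and share many of their markers, which include AP-2 and DLX factors.

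Totals ranged from 15877396 to 18918609 counts per library, and 17672 genes passed the filter on low counts. PCGF6 itself had 268 and 300 counts in WT, against 99 and 103 in clone 1 and, in clone 2, 187 and 159, and both clones were lower than WT (adjusted p = 1.03e-10 in clone 1 and 1.21e-05 in clone 2, by the quasi-likelihood test of edgeR, adjusted by Benjamini-Hochberg as in all tests below). These counts measure RNA and not the PCGF6 protein. The study reports a deletion at both alleles in each clone, and checked the knockout by western blot, qRT-PCR and genomic PCR. POU5F1, NANOG, LIN28A, DPPA4, SALL4 and TDGF1, markers of pluripotent cells, together gave 4930 to 5149 CPM (counts relative to a library size scaled by TMM) in WT, 4555 to 4673 in clone 1 and 4509 to 4628 in clone 2, and 0 of these 6 were called different from WT by edgeR or by DESeq2. With both clones as 1 group, at an unadjusted p under 0.05, 4 of them differed by either tool, and 3 at an adjusted p under 0.05, with changes under the fold threshold. SOX2, a core pluripotency factor outside that list and added after its values were seen, was called lower (log2 fold change −0.69, SE 0.19, adjusted p = 0.0178), with 5321 and 5460 counts in WT, against 4711 and 4461 in clone 1 and, in clone 2, 2777 and 2658. Its log2 fold change was −0.41 in clone 1, under the fold threshold, and −1.04 in clone 2, where it was called. The markers of primitive streak, mesoderm and endoderm TBXT, MIXL1, EOMES, MESP1, SOX17 and FOXA2 moved with the knockout, from 4.07 to 4.91 CPM in sum in WT to between 613 and 614 in clone 1 and between 725 and 740 in clone 2. All 5 of these 6 that were tested were called higher, but for TBXT, EOMES, SOX17 and FOXA2 the WT counts were too low to pass the filter, so those 4 could be tested only because of their PCGF6-KO libraries. SOX17 and MESP1 were at 0 counts in both WT libraries, and the part of such cells in the values below was not tested. In bulk RNA, more cells of a type and more RNA per cell cannot be told apart.

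The sequence before the start of transcription was examined for motifs of the factors in PRC1.6 and of AP-2 itself. RefSeq promoters on GRCh38.p14 were at hand for TFAP2A, TFAP2B, VTCN1, GABRP, TP63, CGA and ELF3, and the 250 bases upstream of the start were read in each. TFAP2C, DLX3 and DLX5, which are among the genes called higher below, had no window. Starts of a gene outside its window were not read. Searched on both strands, the E-box CACGTG of MAX and MYC and the E2F6 motif GCGGGAA matched in 0 of these 7 windows, against 6.34% and 5.52% of 35116 windows of the same length over all genes. At such shares, 0 matches in 7 windows are no contrast. The AP-2 palindrome GCCNNNGGC matched in 1 of the 7, that of VTCN1, and in 19.8% of all windows. TATAAA, the core of the TATA box, and TGACGTCA, the cyclic AMP response element, were added after the windows had been read. TATAAA matched in TFAP2A, TFAP2B, CGA and ELF3, against 10.7% of all windows. In TFAP2B the match was on the opposite strand, at 202 to 197 bases before the start, and in ELF3 it was at 34 to 29. The GENCODE annotation places exons of the same gene on all 250 bases of the ELF3 window, and on 148 bases in TFAP2B, 34 in GABRP and 33 in VTCN1. TGACGTCA matched at 2 places in CGA and in 1.65% of all windows. None of these motifs overlapped another in the 3 sequences below. A match describes letters only, and a window without a match says nothing about the factor.

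The windows of 3 genes are printed 5′ to 3′ on the strand of the gene, with motif matches in capitals, because the genes differ in how they behaved. TFAP2A, at chr6:10419660-10419909 on the reverse strand, went from at most 6 counts in WT to at least 237 in PCGF6-KO, and its capitals are TATAAA at 30 to 25 bases before the start. CGA, at chr6:87095107-87095356 on the reverse strand, stayed under 10 counts in every library, and its capitals are TGACGTCA at 142 to 135 and at 124 to 117 bases before the start and TATAAA at 29 to 24. VTCN1, at chr1:117210961-117211177 on the reverse strand, had at most 7 counts in any library, and its capitals are the AP-2 palindrome at 152 to 144 bases before the start. The VTCN1 sequence stops 34 bases before the RefSeq start, where GENCODE places an exon.
TFAP2A: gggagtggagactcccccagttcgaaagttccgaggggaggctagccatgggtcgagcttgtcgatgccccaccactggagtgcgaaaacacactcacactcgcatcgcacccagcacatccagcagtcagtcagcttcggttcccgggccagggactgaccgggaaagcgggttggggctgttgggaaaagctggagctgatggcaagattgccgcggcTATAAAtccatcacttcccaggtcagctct
CGA: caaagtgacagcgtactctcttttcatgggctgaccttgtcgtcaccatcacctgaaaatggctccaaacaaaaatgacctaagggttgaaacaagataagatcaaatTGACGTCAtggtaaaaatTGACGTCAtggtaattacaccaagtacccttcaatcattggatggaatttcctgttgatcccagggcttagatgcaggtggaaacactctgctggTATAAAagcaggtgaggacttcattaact
VTCN1: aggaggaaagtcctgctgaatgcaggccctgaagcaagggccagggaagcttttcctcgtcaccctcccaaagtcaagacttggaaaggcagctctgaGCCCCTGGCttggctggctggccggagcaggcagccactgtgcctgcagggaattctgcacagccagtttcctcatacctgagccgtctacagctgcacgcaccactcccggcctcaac

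PCGF6-KO cells were compared with WT to ask whether these markers change without PCGF6 in cells kept in medium for pluripotent cells. To be called, a gene needed an adjusted p under 0.05 together with a log2 fold change beyond 0.6 in either direction. TFAP2A, TFAP2B, TFAP2C, DLX3, DLX5 and ELF3 rose in PCGF6-KO, GABRP was not called, and VTCN1, TP63 and CGA had too few counts to be tested. Set beside the 6 called higher and 0 lower, 14.9% of all tested genes were called higher in PCGF6-KO and 8.70% lower. As the genes were chosen with earlier results of these data known, the shares are given for scale and are no test of the 10 genes. At an unadjusted p under 0.05 edgeR gave the same 6 and 0, as did DESeq2. The filter was passed by 7 of the 10. TFAP2A, TFAP2B and DLX5 passed it through their PCGF6-KO libraries alone, so for these 3 the filter itself favoured a call in the higher direction. In CPM, all 4 PCGF6-KO libraries lay above both WT libraries for 8 of the 10 genes, all but VTCN1 and GABRP. The share was 29.5% over all tested genes, which do not include TP63 and CGA. Over all 17672 genes the log2 fold changes had a median of 0.0037, so the changes given here are relative to genes centred on 0.

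TFAP2C (ENSG00000087510, GRCh38 chromosome 20, 56629306 to 56639283, forward strand), which acts in trophoblast and in primordial germ cells, had 136 and 134 counts in WT, against 1583 and 1634 in clone 1 and, in clone 2, 1655 and 1526. Every PCGF6-KO library held over 10 times the count of either WT library. Its level went from 8.19 ± 0.228 CPM (SD, n = 2) in WT to 89.8 ± 5.15 CPM over the 4 PCGF6-KO libraries, which is a log2 fold change of 3.45 (SE, its standard error, 0.096, adjusted p = 7.48e-08).

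TFAP2A (ENSG00000137203, chromosome 6, 10393186 to 10419659, reverse strand), a regulator of surface ectoderm and neural crest, had 6 and 5 counts in WT, against 276 and 237 in clone 1 and, in clone 2, 294 and 272. WT cells were thus close to 0, and no PCGF6-KO library came near them. The level rose from 0.334 ± 0.0487 CPM (n = 2) to 15.2 ± 1.77 CPM (n = 4), with a log2 fold change of 5.47 (SE 0.25, adjusted p = 7.06e-07). The annotation (GENCODE release 44) has an antisense lncRNA, TFAP2A-AS2, that shares 941 exon bases with TFAP2A, and a second, TFAP2A-AS1, that shares 438. The strand setting of the counting is not named in the sources used here, so reads on shared bases cannot be assigned to either gene with certainty. TFAP2A-AS2 was listed with 0 and 3 counts in WT against 6, 3, 15 and 12 in the PCGF6-KO libraries.

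TFAP2B (ENSG00000008196, chromosome 6, 50818723 to 50847619, forward strand), which acts in neural crest and kidney, was not detected in WT. Its counts were 0 and 0 in WT, against 11 and 5 in clone 1 and, in clone 2, 25 and 20. A count of 0 allows up to 3 counts, or 0.184 and 0.180 CPM in the WT libraries, and all 4 PCGF6-KO libraries were above that. Against 3 counts in each WT library, TFAP2B was at least 4.77-fold higher in PCGF6-KO (adjusted p = 0.0112), and at least 2.34-fold and 7.21-fold higher in clones 1 and 2. Without either WT library in turn, the adjusted p was 0.0598 and 0.0617. Such bounds allow for counting error in the WT counts alone and take the PCGF6-KO counts as observed. The intervals below cover counting error only.

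Since reads were counted over whole genes, AP-2 levels were compared per length, as RPKM (CPM per kilobase of the gene, from the deposited gene lengths). The deposited length of TFAP2A, 8274 bases, is near the 8220 bases of all its annotated exons together. Which transcripts were present was not tested, so levels and shares between genes depend on these lengths. The AP-2 family, with TFAP2D and TFAP2E, summed to 2.99 and 2.87 RPKM in WT and to between 29.8 and 34.5 RPKM in PCGF6-KO. TFAP2C made up 92.9 and 93.1% of that sum in WT and between 91.7 and 93.9% in PCGF6-KO, so its share was nearly the same while the sum rose about 10-fold. TFAP2A took 1.49 and 1.26% of the sum in WT and between 4.95 and 5.94% in PCGF6-KO. TFAP2E, a less studied member, took 5.56 and 5.65% in WT and between 0.780 and 1.71% in PCGF6-KO. Its own level per length was no lower, at 0.166 and 0.162 RPKM in WT and between 0.248 and 0.591 RPKM in PCGF6-KO. TFAP2E was not called over both clones (log2 fold change 1.27, adjusted p = 0.0638), and was called in clone 2 against WT (1.60) but not in clone 1 (0.87). TFAP2D had at most 2 counts in any library and was not tested.

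**Figure D1:**
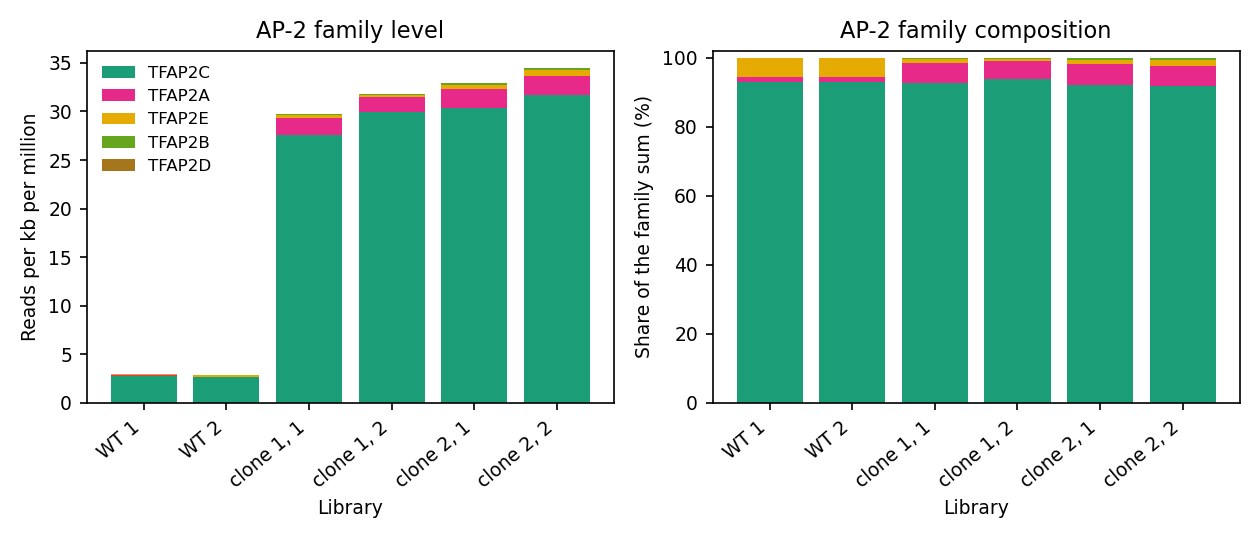
Levels of the 5 AP-2 genes in each of the 6 libraries, stacked, in RPKM (left) and as a share of the family sum in percent (right). The left bars reach 2.99 and 2.87 in WT and between 29.8 and 34.5 in PCGF6-KO, and on the right TFAP2C takes between 91.7 and 93.9% of every bar.

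AP-2 factors act with partner proteins, and 4 of the 5 AP-2 cofactors listed (CITED1, CITED2, CITED4, KCTD1 and KCTD15) were tested. CITED2 and KCTD15 rose, and CITED4 and KCTD1 were not called, with a median log2 fold change of 0.64 over the 4. In clone 2 alone, CITED4 was called lower than WT (log2 fold change −0.94, adjusted p = 0.0324), and in clone 1 it was not called (−0.35, adjusted p = 0.403). CITED2, a coactivator of AP-2, had 1927 and 1918 counts in WT against 5447 to 6275 in PCGF6-KO (log2 fold change 1.51, SE 0.059, adjusted p = 3.60e-07). KCTD15, a repressor of AP-2 activity in neural crest formation, had 676 and 805 counts in WT against 1374 to 1648 in PCGF6-KO (log2 fold change 0.90, SE 0.099, adjusted p = 0.000146). For both, all PCGF6-KO libraries were above both WT libraries.

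The DLX homeobox genes lie in pairs, and DLX5 and DLX3 are early markers of the border of the neural plate and of placodes, with DLX3 also needed in the placenta. DLX5 (ENSG00000105880, chromosome 7, 97020396 to 97024950, reverse strand) had 3 and 0 counts in WT, against 65 and 60 in clone 1 and, in clone 2, 101 and 100. The 3 groups did not overlap, and WT was at the limit of detection. DLX5 rose with a log2 fold change of 5.55 (SE 0.67, adjusted p = 0.000255), and the ratio of its summed counts, scaled for library size, was 50.1 (95% exact interval 17.0 to 244). The fitted log2 fold change rests on the few WT counts, and was 9.35 without WT replicate 1 and 4.59 without WT replicate 2.

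DLX3 (ENSG00000064195, chromosome 17, 49990005 to 49995224, reverse strand) had 10 and 11 counts in WT, against 51 and 33 in clone 1 and, in clone 2, 26 and 25. Each PCGF6-KO library was above both WT libraries, and the level went from 0.637 ± 0.0319 CPM (n = 2) to 1.87 ± 0.556 CPM (n = 4). The log2 fold change was 1.55 (SE 0.37, adjusted p = 0.0104), and the adjusted p was 0.0816 and 0.0737 without WT replicate 1 and 2.

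Of the 4 other DLX genes, all tested, DLX1, DLX2 and DLX6 rose and DLX4 was not called. DLX4 was the 1 of the 4 that passed the filter on its WT counts, and the 3 that rose passed it through their PCGF6-KO libraries alone. DLX6, the neighbour of DLX5, had 0 and 0 counts in WT against 22, 25, 36 and 28 in PCGF6-KO, at least 8.59-fold higher (adjusted p = 0.000326), and shares exon bases with DLX6-AS1. DLX2 had 3 and 1 counts in WT against 37, 31, 43 and 43 in PCGF6-KO (log2 fold change 4.08, SE 0.49, adjusted p = 0.000227). DLX1 had 5 and 2 counts in WT against 15 to 20 in PCGF6-KO (log2 fold change 2.15, SE 0.48, adjusted p = 0.00754). DLX4, which pairs with DLX3, had 16 and 29 counts in WT against 19 to 53 in PCGF6-KO, and its groups overlapped.

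TP63 (ENSG00000073282, chromosome 3, 189631389 to 189897276, forward strand) encodes p63, the factor that commits surface ectoderm to stratified epithelium. It had 1 and 1 counts in WT, against 8 and 7 in clone 1 and, in clone 2, 5 and 7. All 4 PCGF6-KO libraries were higher than WT, at a level of a few reads per library. The ratio of PCGF6-KO to WT was 6.23 (95% exact interval 1.56 to 54.0). TP63 did not pass the filter. With no filter on low counts it was called higher (log2 fold change 2.50, adjusted p = 0.0436), whereas DESeq2 did not call it (adjusted p = 0.142). Without the filter, edgeR called TP63 in clone 1 (adjusted p = 0.0431) but not in clone 2 (adjusted p = 0.0728). TP73, which encodes a related factor, had 134 and 151 counts in WT, against 43 and 52 in clone 1 and, in clone 2, 26 and 12, and fell by 2.23 on the log2 scale (SE 0.37, adjusted p = 0.00157), with TP73-AS1 on shared exon bases.

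ELF3 (ENSG00000163435, chromosome 1, 202007945 to 202017183, forward strand), an ETS factor of simple and stratified epithelia, was already present in WT. It had 118 and 120 counts in WT, against 275 and 232 in clone 1 and, in clone 2, 202 and 176. Each PCGF6-KO library was above both WT libraries, and clone 2 lay between WT and clone 1. The level went from 7.22 ± 0.0394 CPM (n = 2) to 12.3 ± 1.60 CPM (n = 4), a log2 fold change of 0.77 (SE 0.15, adjusted p = 0.0042). The lncRNA ELF3-AS1 on the opposite strand shares 664 exon bases with ELF3, and was listed with 18 and 20 counts in WT against 24 to 39 in PCGF6-KO. Among 6 related ETS genes, ELF1, ELF2 and ELF4, which are widely expressed, were tested and rose, with log2 fold changes of 1.56, 0.67 and 1.79 (adjusted p = 6.51e-06, 0.000755 and 5.44e-05). ELF2 was called in clone 2 against WT (0.78) but not in clone 1 (0.55), where it was under the fold threshold. ELF5, EHF and SPDEF, which like ELF3 are epithelial, were not tested, with at most 2 counts of ELF5 and EHF and at most 12 of SPDEF in any library.

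Of the 3 genes that encode cell surface or secreted proteins, GABRP was tested and not called, and VTCN1 and CGA were too low to test. GABRP (ENSG00000094755, chromosome 5, 170763350 to 170814047, forward strand), the pi subunit of the GABA-A receptor and a marker of early amnion, had 116 and 106 counts in WT, against 130 and 140 in clone 1 and, in clone 2, 111 and 100. In CPM, clone 1 overlapped WT and both clone 2 libraries lay just below it, at 6.12 and 6.23 against 6.35 and 7.12. The level of GABRP was 6.74 ± 0.546 CPM (n = 2) in WT, against 6.71 ± 0.722 CPM (n = 4) without PCGF6. GABRP was not called (adjusted p = 0.987), and the ratio of PCGF6-KO to WT was 0.999 with a 95% exact interval of 0.851 to 1.18 from counting alone.

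VTCN1 (ENSG00000134258, chromosome 1, 117143587 to 117210960, reverse strand) encodes B7-H4, an inhibitory ligand of T cells that is used as a marker of amnion and trophoblast. It had 2 and 5 counts in WT, against 4 and 3 in clone 1 and, in clone 2, 1 and 7, and the groups overlapped. At this depth its ratio of 0.988 has a 95% exact interval of 0.379 to 2.87 from counting alone, so these counts leave room for a change within those limits. Of 8 other B7 ligands, 3 were tested and ICOSLG, a costimulatory ligand, was called higher, with 53 and 46 counts in WT against 143, 143, 151 and 249 in PCGF6-KO (log2 fold change 1.70, SE 0.34, adjusted p = 0.00422).

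CGA (ENSG00000135346, chromosome 6, 87085498 to 87095106, reverse strand) encodes the alpha subunit shared by chorionic gonadotropin and the pituitary glycoprotein hormones. It had 0 and 2 counts in WT, against 9 and 5 in clone 1 and, in clone 2, 5 and 6. All PCGF6-KO libraries were above WT, but by a few reads, with a ratio of 5.77 (95% exact interval 1.44 to 50.2). CGA did not pass the filter, and with no filter it was not called (adjusted p = 0.0837). Of the 9 beta subunits that can pair with it (CGB1, CGB2, CGB3, CGB5, CGB7, CGB8, LHB, FSHB and TSHB), LHB alone was tested and was not called. The CGB genes are near-identical copies, so their counts, at most 9 in any library, are uncertain.

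Set side by side per length, the order of the genes changed. In WT the order by RPKM was TFAP2C (2.73 ± 0.0758, n = 2), GABRP (1.46 ± 0.118), ELF3 (1.00 ± 0.0055) and DLX3 (0.234 ± 0.0117), whose ranges did not overlap. The other 6 genes were under 0.1 RPKM on average, and VTCN1, DLX5, TFAP2A and CGA could not be ordered among neighbours, as each range overlapped the next. In clone 1 TFAP2C (28.7 ± 1.67, n = 2) was followed by DLX5 (1.92 ± 0.0401) and ELF3 (1.89 ± 0.159), which overlapped, then by TFAP2A (1.66 ± 0.119) and GABRP (1.57 ± 0.138), which overlapped, and by DLX3 (0.826 ± 0.222). In clone 2 TFAP2C (31.0 ± 0.902, n = 2), DLX5 (3.38 ± 0.268), TFAP2A (2.0 ± 0.0631), ELF3 (1.54 ± 0.0168), GABRP (1.34 ± 0.0169), DLX3 (0.551 ± 0.0323) and TFAP2B (0.213 ± 0.0152) followed each other without overlap. GABRP, which came after TFAP2C in WT, was thus below DLX5, ELF3 and TFAP2A in both clones by its mean. Its own level was not called different. The order of genes within a group depends on the deposited lengths, which are not those of single transcripts.

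Each clone was then set against WT, and clone 2 against clone 1, to see whether both knockouts gave the same values. Both comparisons with WT share the same WT libraries. The genes called higher in each clone were again TFAP2A, TFAP2B, TFAP2C, DLX3, DLX5 and ELF3, and 0 were called lower. Among all genes tested, the share called higher was 16.0% in clone 1 and 16.9% in clone 2, and the share called lower was 8.80% and 12.5%. TFAP2C had log2 fold changes of 3.40 in clone 1 and 3.51 in clone 2, and TFAP2A of 5.33 and 5.60. The clones were not called different in TFAP2C (0.11, SE 0.072, adjusted p = 0.322) or in TFAP2A (0.27, SE 0.12, adjusted p = 0.125). Counting error alone placed the ratio of clone 2 to clone 1 between 1.03 and 1.13 for TFAP2C and between 1.07 and 1.36 for TFAP2A (95% exact intervals).

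TFAP2B and DLX5 were called higher in clone 2 than in clone 1. Over all tested genes 7.87% differed between the clones, 3.73% higher and 4.14% lower in clone 2. TFAP2B differed by 1.60 on the log2 scale (SE 0.47, adjusted p = 0.0170), from 0.425 ± 0.212 CPM (n = 2) in clone 1 to 1.31 ± 0.0935 CPM (n = 2) in clone 2. This call was lost without replicate 2 of clone 1 (1.18, adjusted p = 0.136) or of clone 2 (adjusted p = 0.0515). DLX5 differed by 0.81 (SE 0.22, adjusted p = 0.00892), from 3.35 ± 0.0700 to 5.90 ± 0.468 CPM, and was lost without replicate 2 of clone 2 (adjusted p = 0.0813) and under DESeq2 (adjusted p = 0.134).

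DLX3 and ELF3 had the lower values in clone 2. The log2 fold change against WT was 1.81 in clone 1 and 1.22 in clone 2 for DLX3, and 0.91 and 0.61 for ELF3. Neither was called different between the clones (DLX3 −0.59, SE 0.31, adjusted p = 0.201; ELF3 −0.30, SE 0.13, adjusted p = 0.105). In clone 2 both were near a limit of the call, as DLX3 had an adjusted p of 0.103 under DESeq2 and ELF3 a log2 fold change of 0.57 under upper-quartile normalization. GABRP was not called in clone 1 (0.10, adjusted p = 0.623) or in clone 2 (−0.13, adjusted p = 0.557), and the clones were not called different (−0.23, adjusted p = 0.357).

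**Figure D2:**
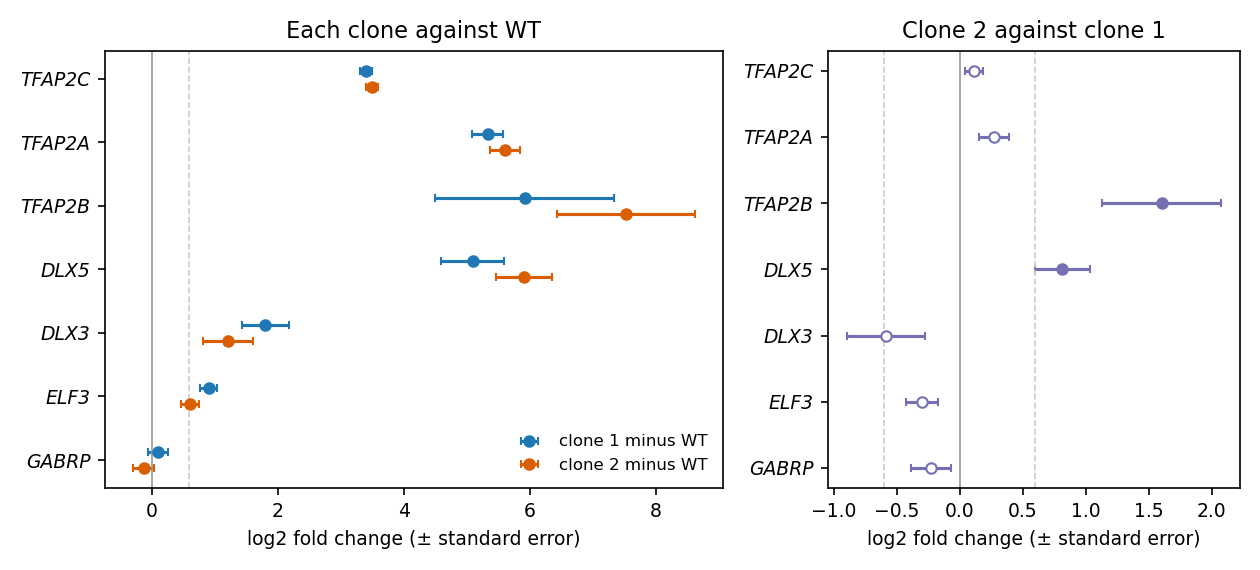
Fitted log2 fold changes with standard errors of the 7 genes tested, for clone 1 (blue) and clone 2 (orange) minus WT on the left and clone 2 minus clone 1 on the right, where filled points were called and open points were not. Dashed lines mark the threshold of 0.6. On the left the clones lie side by side for TFAP2C and TFAP2A, on the right TFAP2B (1.60) and DLX5 (0.81) are called, and the values of TFAP2B against WT depend on WT libraries at 0 counts.

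For the AP-2 factors, the 3 tested genes with the most similar pattern across the 6 libraries were found by the Euclidean distance between centred log2(CPM + 0.5) values. Centring takes out the level of a gene, so near genes can differ widely in level. The added 0.5 CPM shrinks the change of genes near 0 in WT, such as TFAP2A, TFAP2B and DLX5, so near genes can also differ in fold change. Nearest to TFAP2C were SLC47A1 (distance 0.202), ID2 (0.217) and RHOB (0.259). ID2, an inhibitor of basic helix-loop-helix factors, went from 17.8 and 20.4 CPM in WT to between 187 and 216 CPM in PCGF6-KO. Nearest to TFAP2A were FLNC (0.253), FILIP1L (0.269) and FGF17 (0.304). FLNC, which encodes the actin crosslinker filamin C, went from 23.2 and 25.6 CPM in WT to between 405 and 485 CPM. Nearest to TFAP2B were AC023490.3 (0.208), PRELP (0.250) and HOXC11 (0.285), all at low levels. Among the 7 tested genes themselves, DLX3 and ELF3 were the closest pair (0.450), followed by TFAP2C and DLX5 (0.771). TFAP2A and DLX5, with fitted log2 fold changes of 5.47 and 5.55, were at 1.42. These distances thus do not order the genes by fitted fold change.

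Wider lists of marker genes were described by their counts. Over all tested genes, 14.9% were called higher in PCGF6-KO and 8.70% lower, which gives a scale for these lists and for the gene families above. Over all genes, 1968 of the 17672 tested (11.1%) did not pass the filter on their WT counts and needed PCGF6-KO libraries to be tested, and 853 of these were called higher and 0 lower, so the counts of the lists are no test of a list. Of 18 other amnion genes, 16 were tested, 13 rose and KRT7, HEY1 and CLDN10 were not called. Of the 13 that rose, 7 (ISL1, GATA2, HAND1, MSX2, IGFBP5, NR2F2 and TBX3) were too low in WT to pass the filter there, and the other 6 passed it on their WT counts. KRT7 was called lower in clone 2 alone (log2 fold change −1.07, adjusted p = 0.00261). HAND1, a factor of extraembryonic and lateral mesoderm as well as amnion, had 0 and 0 counts in WT against 672 to 2012 in PCGF6-KO, at least 394-fold higher (adjusted p = 0.00029). NR2F2, an orphan nuclear receptor, had 0 and 0 counts in WT against 135 to 315 in PCGF6-KO, at least 69.6-fold higher (adjusted p = 0.000309). TBX3, which shares exon bases with TBX3-AS1, had 2 and 2 counts in WT against 359 to 1149 in PCGF6-KO (log2 fold change 8.31, SE 1.10, adjusted p = 0.000419). MSX2, a target of BMP signalling, had 8 and 11 counts in WT against 561 to 1067 in PCGF6-KO (log2 fold change 6.27, SE 0.50, adjusted p = 2.04e-05). Several of these genes also mark mesoderm, whose markers named above rose in the same libraries.

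Trophoblast genes gave a mixed account. Of 25, only 12 passed the filter, of which 6 rose, HLA-G fell and 5 were not called. Over all tested genes 14.9% were called higher and 8.70% lower. Among those that rose, CDX2 and ERVW-1 were too low in WT to pass the filter there. CDX2, a trophectoderm factor that is also expressed in the primitive streak, had 1 and 1 counts in WT against 660 to 1481 in PCGF6-KO, a ratio of 939 (95% exact interval 260 to 7758). LRP2, ERVW-1 (the envelope gene that encodes syncytin-1) and CYP11A1 (the first enzyme of steroid synthesis) rose with log2 fold changes of 3.41, 2.05 and 1.69 (adjusted p = 1.49e-05, 0.00514 and 0.000597). HLA-G, chosen here after its values were seen as the gene that fell, had 26 and 25 counts in WT against 6, 14, 14 and 7 without PCGF6 (log2 fold change −1.42, adjusted p = 0.0186). VGLL1, ERVFRD-1, XAGE3 and LGALS13 were at 0 counts in all 6 libraries.

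Surface ectoderm genes were centred on 0. Of 21, 18 were tested, 5 rose, 2 fell and 11 were not called. Their log2 fold changes had a median of −0.06, and all 18 passed the filter on their WT counts. Of the 15704 genes over all that passed it on WT counts, 1777 were called higher and 1537 lower. GRHL3, the factor of periderm and of neural tube closure, had 12 and 17 counts in WT against 316 to 618 in PCGF6-KO (log2 fold change 4.83, SE 0.42, adjusted p = 3.25e-05). KRT8 and KRT18, the keratin pair of simple epithelia, and PERP, a target of p63 in desmosomes, rose with log2 fold changes of 2.03, 1.46 and 1.38 (adjusted p = 1.49e-05, 0.000124 and 4.13e-06). KRT8 and KRT18 share exon bases with each other in the annotation. The 2 that fell, named after their values were seen, were GRHL2, by 0.80 on the log2 scale, and CLDN4, by 0.69 (adjusted p = 0.00011 and 0.00251). The keratins of stratified epithelium KRT5, KRT14 and KRT15 had at most 5 counts in any library.

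Of 14 genes of placodes and neural crest, 13 were tested, 10 rose, 1 fell and 2 were not called, where 14.9% of all tested genes rose and 8.70% fell. Of the 10 that rose, 6 passed the filter on their WT counts, and PAX3, PITX1 and MSX1 were among those too low in WT to pass it there. PITX1 had 1 and 0 counts in WT against 232 to 658 in PCGF6-KO, a ratio of 731 (95% exact interval 131 to 28896). PAX3 had 2 and 0 counts in WT against 204 to 298 in PCGF6-KO, a ratio of 234 (95% exact interval 64.7 to 1938). MSX1 and SNAI2 rose with log2 fold changes of 6.10 and 4.78 (adjusted p = 2.45e-07 and 1.53e-05). SIX4 was the gene that fell, by 0.69 on the log2 scale (adjusted p = 0.000405), and was named after its values were seen. SNAI2, a factor of epithelial to mesenchymal transition, and MSX1 are expressed in mesoderm as well as in neural crest.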

How the data were processed

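RNA-seq libraries of WT PGP1 cells (n = 2), PCGF6-KO clone 1 (n = 2) and PCGF6-KO clone 2 (n = 2) were used. ChIP-seq was not analysed here. The authors trimmed reads with Trim Galore (0.6.2), aligned them to GRCh38 with HISAT2 (2.1.0), counted them with featureCounts, and deposited raw counts of 57133 genes with gene lengths. The annotation release, strand setting and handling of multi-mapped reads are not given in the sources used here. Samples were grouped by their labels.

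After filterByExpr (10 counts), 17672 genes were scaled by TMM and tested with edgeR 4.0.16 in R 4.3.3 (glmQLFit, glmQLFTest, Benjamini-Hochberg adjustment over all tested genes). The 4 PCGF6-KO libraries were compared with WT as 1 group, and the clones in a fit with 3 groups. Both thresholds were those of the study's methods. The common biological coefficient of variation was 0.12. Per-length levels used the deposited lengths, and intervals are exact binomial (95%). Positions came from GENCODE release 44, and promoters from RefSeq (1 of 2 windows of TFAP2A). Steps were tested on simulated data.

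The 10 genes and the gene lists were chosen with earlier results of these data known. Some listed genes are not reported here. All 10 genes were named, and of each list the called genes, or, where more than 4 were called, the 4 that changed most among those called alike in each clone. Tried as alternatives were upper-quartile and RLE normalization, DESeq2 1.42.0, other filters on low counts, the adjusted p alone, the mean of the clones, the replicate block, and leaving out each library.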

Additional observations from a re-analysis of the deposited data

Results flagged for a closer look

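Of the 10 genes, TFAP2B and DLX5 stood out because their change against WT differed between the 2 clones by a direct test. TFAP2B was 1.60 higher in clone 2 than in clone 1 on the log2 scale (standard error 0.47, edgeR adjusted p = 0.0170), with 11 and 5 counts in clone 1 and 25 and 20 in clone 2. DLX5 was 0.81 higher in clone 2 (standard error 0.22, adjusted p = 0.00892), with 65 and 60 counts in clone 1 and 101 and 100 in clone 2. For both, each clone 2 library was above each clone 1 library. No library of the 4 from PCGF6-KO stood apart from the other 3 in any of the 10 genes by Dixon's test.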

How the results depend on the processing

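TFAP2A, TFAP2C, DLX5 and ELF3 were called higher in PCGF6-KO under every alternative in which they were tested. The number of the 10 genes called was 6 in PCGF6-KO, clone 1 and clone 2 against WT, and fell to 3 in each with at least 10 counts required in every library, a filter that TFAP2A, TFAP2B and DLX5 cannot pass because of their WT counts. Clone 2 against clone 1 gave 2 calls, 0 with that filter, and 0 with DESeq2, by which 1 gene had an unadjusted p under 0.05 and the adjusted p of TFAP2B was not given. Leaving out 1 library gave 4 to 6 calls in PCGF6-KO, 5 to 6 in clone 1, 5 to 6 in clone 2 and 0 to 2 between the clones. Without clone 2 replicate 1, TFAP2B did not pass the filter. GABRP, at −0.0042 in PCGF6-KO and between −0.083 and 0.078 on leaving out 1 library, turned to 0.016 with the filter of 10 counts, 0.078 without WT replicate 1, and 0.047 and 0.031 without clone 2 replicate 1 and 2, and was never called. In clone 2 against WT, DLX3 was not called without WT replicate 1 (adjusted p = 0.0642), without clone 2 replicate 2 (0.0511) or with DESeq2. With adjusted p alone, calls over all genes went from 4167 to 6556 in PCGF6-KO, 4379 to 8002 in clone 1, 5197 to 8904 in clone 2 and 1390 to 3442 between the clones, and DESeq2 gave 810 between the clones. The cause was not tested.

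The libraries of the groups share replicate numbers, but with 2 per group nothing shows that the numbers pair them. Differences between replicates correlated at 0.10 (WT and clone 1), 0.099 (WT and clone 2) and 0.25 (clone 1 and clone 2) over 12963 genes. A fit with the replicate block called 6, 6, 6 and 2 of the 10 genes, and changed no call among the 97 tested genes of the 10, the lists, PCGF6 and SOX2 in any comparison. Calls over all genes were 3876, 4420, 5233 and 1484 with the block.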

Other observations

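Many of the 18 other amnion genes differed between the clones. Of the 16 tested, 10 were called higher and KRT7 lower in clone 2 than in clone 1, with a median log2 difference of 0.85, where 3.73% of all tested genes were called higher and 4.14% lower. HAND1, which had 672 and 770 counts in clone 1 and 2012 and 1575 in clone 2, was 1.43 higher in clone 2 (standard error 0.091, edgeR adjusted p = 2.34e-11). TBX3 was 1.68 higher (standard error 0.091, adjusted p = 5.70e-13) and NR2F2 1.25 higher (standard error 0.14, adjusted p = 2.32e-07). Of the placode and neural crest genes, 5 of 13 were above clone 1 in clone 2 by the same call, and 1 was below. TFAP2C, at 0.11, was not called different between the same libraries, and whether its change differs from that of the amnion list was not tested.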
